A study of Mus musculus with 18 samples.

Results

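The comparison described here is that of mouse embryonic fibroblasts (MEFs) after 12 days of reprogramming in the presence of a scrambled control shRNA (shSCR, 2 libraries) with non-infected MEFs at day 0 (NI, 2 libraries). These 4 libraries were chosen by their labels, out of 18 in the series. The series asked how knockdown or overexpression of RNA-binding proteins acts on reprogramming, and the day 12 control against day 0 gives the genes and splicing events that change over reprogramming itself. All MEFs carried a doxycycline-inducible cassette with Pou5f1, Sox2, Klf4 and Myc (OSKM) in the Collagen locus and the M2rtTA transactivator. The NI MEFs were kept in MEF medium without doxycycline. The shSCR cells had been infected with a lentivirus that carries GFP, induced with doxycycline in medium with LIF, sorted for GFP at day 2, replated on irradiated feeder MEFs and harvested at day 12. The time, OSKM, the infection, the sort, the medium and the feeders all differ between the groups, and their parts in a difference cannot be told apart. How much of the day 12 RNA came from feeders was not measured, and in such bulk samples fewer cells of a type and less RNA per cell cannot be told apart. The labels call the libraries duplicates and do not say whether they came from separate embryos or cultures. A p-value thus measures a spread between duplicates, which may be technical. In the main tests this spread was estimated from all 12 libraries of the knockdown dataset, including those of the Cpsf3 and Hnrnpul1 knockdowns. An SE or a failed test therefore does not give the scatter of NI and shSCR alone.

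Reprogramming turns a fibroblast into an induced pluripotent stem cell. The fibroblast is a mesenchymal cell, which holds its shape with actin stress fibres and secretes collagen. The loss of these traits and the gain of cell junctions is known as the mesenchymal-to-epithelial transition, and the genes of the pluripotency network are switched on later. Alternative splicing changes along with expression in this process. Its unit here is the PSI (percent spliced in), which is the percentage of a gene's transcripts that include a given exon or splice site or that retain a given intron.

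Expression was deposited for 9435 genes, as CPM (the reads of a gene relative to the library size) with a library size scaled for each library (scaled CPM). The listed values summed to between 956505 and 1058730 scaled CPM in the 4 libraries. Every listed gene was at 1.00 scaled CPM or more in each of the 12 libraries of the knockdown dataset and at 5 or more in at least 9 of them, so that a gene silent in the MEFs is not listed. Since 10 of the 12 are day 12 libraries, a gene low in NI alone can be listed, whereas a gene under 5 in most day 12 libraries cannot, and large rises are favoured over large falls in this table. A splicing event was used when at least 10 reads covered it in each of the 4 libraries, which held for 382237 events. Reads over exon events summed to between 80070553 and 93265939 per library. The 2 shSCR libraries stood apart from each other more than the 2 NI libraries did in several gene groups. Extracellular matrix genes summed to 56642 and 58698 in NI and 44685 and 26072 in shSCR, in scaled CPM. Pluripotency genes in the table summed to 519 and 441 in NI and 2003 and 3374 in shSCR. Thus shSCR 1 was nearer to the MEFs than shSCR 2 in both groups of genes. DNA replication genes summed to 4235 and 4658 in NI and 2335 and 4145 in shSCR, and shSCR 2 was the nearer to the MEFs here. The genes that the results turn on are therefore given with their value in every library, and where the call of a named gene was lost without 1 of the libraries, this is marked beside it.

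Expression differed between the groups in 4197 of 9435 genes (44.5%) by limma on log2(scaled CPM + 1), at an adjusted p under 0.05. Of these, 2122 were higher (22.5%) and 2075 lower (22%) at day 12. At least 1 log2 unit of change was reached by 1134 of the higher and 769 of the lower genes, a split that the listing minimum bears on. The split depends on the scaling: after the libraries were set to equal sums, which raised the median log2 fold change of all genes by 0.13, 2447 of 3987 called genes were higher (61.4%, against 50.6% as deposited). Calls fell to 2613 without NI 1 and to 2745 without NI 2. The plot of fold change against level names the genes with the largest changes that are described next.

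**Figure D1:**
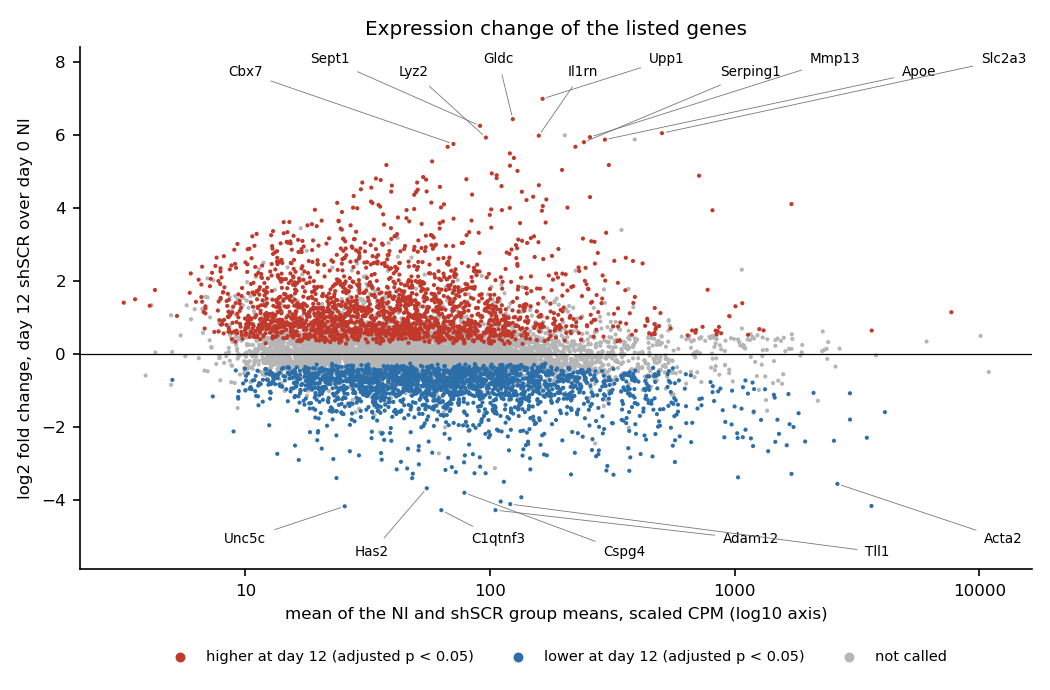
Log2 fold change of day 12 shSCR over day 0 NI on log2(scaled CPM + 1), against the mean of the 2 group means in scaled CPM on a log10 axis, each point being 1 of 9435 genes, with genes at an adjusted p under 0.05 in red (higher) or blue (lower). The 10 genes with the largest called rise and 7 of the 10 with the largest called fall are named, from 6.98 for Upp1 down to -4.29 for Adam12, and the listing minimum allows larger rises than falls.

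The 10 largest rises were in genes of varied function. Upp1 (chr11:9118103-9136170, + strand), which encodes the uridine phosphorylase of nucleoside salvage, was at 1.98 and 1.21 in NI and 279 and 373 in shSCR (log2 fold change 6.98, SE 0.47, adjusted p = 5.14e-05). Gldc (chr19:30098447-30175429, - strand), the glycine decarboxylase of the mitochondrial glycine cleavage system, was at 1.81 and 1.79 in NI and 189.8 and 302 in shSCR (log2 fold change 6.42, SE 0.86, adjusted p = 0.000738). Both genes lay near the lowest value of the table at day 0 and were abundant at day 12. Sept1, a septin of the cytoskeleton, was at 1.28 and 1.4 in NI and 139 and 222 in shSCR (log2 fold change 6.24, SE 0.91, adjusted p = 0.0011). Slc2a3 (chr6:122727809-122801640, - strand), a glucose transporter, was at 16.1 and 11.7 in NI and 761 and 1228 in shSCR (log2 fold change 6.04, SE 0.65, adjusted p = 0.000284). Apoe, the apolipoprotein of lipid transport, went from 10.3 and 7.69 in NI to 509 and 652 in shSCR (log2 fold change 5.86, SE 0.33, adjusted p = 3.41e-05). Cbx7, a subunit of Polycomb repressive complexes, was at 1.72 and 1.5 in NI and 121 and 159 in shSCR (log2 fold change 5.74, SE 0.66, adjusted p = 0.000377), and it is the only chromatin gene among the 10. In these 6 genes shSCR 2 was the higher day 12 library, and in the other 4 it was shSCR 1. Il1rn, an antagonist of interleukin signalling, was at 1.24 and 8.49 in NI and 431 and 192 in shSCR (log2 fold change 5.97, SE 0.76, adjusted p = 0.000607). Serping1, an inhibitor of the first complement component, was at 5.44 and 6.85 in NI and 749.9 and 206 in shSCR (log2 fold change 5.79, SE 1.18, adjusted p = 0.00522). Lyz2, a lysozyme of macrophages, was at 1.27 and 2.99 in NI and 249 and 132 in shSCR (log2 fold change 5.92, SE 0.64, adjusted p = 0.000278). Mmp13, a collagenase, was at 5.29 and 2.23 in NI and 938 and 79.5 in shSCR and differed most between the shSCR libraries (log2 fold change 5.93, SE 1.66, adjusted p = 0.0207). Its call was not stable, since without NI 1, NI 2 or shSCR 1 the adjusted p was between 0.0664 and 0.122.

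Adam12 and C1qtnf3 had the largest falls. Adam12 (chr7:133883199-134232146, - strand), a membrane metalloprotease, was at 217 and 185 in NI and 7.08 and 12.1 in shSCR (log2 fold change -4.29, SE 0.39, adjusted p = 0.000134). C1qtnf3, a secreted protein with a C1q domain, was at 118 and 122 in NI and 2.23 and 10.8 in shSCR (log2 fold change -4.29, SE 0.94, adjusted p = 0.00726). Acta2 (chr19:34241090-34255590, - strand), the smooth muscle actin of stress fibres, was at 5129.7 and 4558 in NI and 505 and 327 in shSCR (log2 fold change -3.57, SE 0.46, adjusted p = 0.000655). It was among the most highly expressed genes of the MEFs and both shSCR libraries lay far below both NI libraries. Has2, a synthase of hyaluronan, was at 97.8 and 108 in NI and 6.71 and 7.43 in shSCR (log2 fold change -3.69, SE 0.64, adjusted p = 0.00253). Cspg4, a surface proteoglycan of pericytes and mesenchymal cells, was at 168 and 127 in NI and 9.34 and 9.61 in shSCR (log2 fold change -3.81, SE 0.64, adjusted p = 0.00216). Tll1, a metalloprotease that processes procollagen, fell too (log2 fold change -4.12, SE 0.30, adjusted p = 6.35e-05). Unc5c, a netrin receptor, was also among the 10 (log2 fold change -4.18, SE 0.71, adjusted p = 0.00232).

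Among the 15 gene lists plotted with their members, the contractile apparatus had the highest share of genes that fell. Of its 22 genes 21 were listed, 0 rose and 19 fell, and the median log2 fold change of the listed members was -2.01, against 0.00049 over all 9435 genes, of which 22.5% rose and 22% fell. The sum over the group was 32003 and 29784 in NI and 7955 and 5674 in shSCR. Myl9, a myosin light chain, was at 646 and 518 in NI and 67.4 and 48.3 in shSCR (log2 fold change -3.32, SE 0.33, adjusted p = 0.000185). Tpm2, a tropomyosin, was at 829.8 and 786 in NI and 132 and 97.6 in shSCR (log2 fold change -2.82, SE 0.27, adjusted p = 0.000162). The filamins fell too, Flna from 4221 and 4313 to 970.4 and 684 (log2 fold change -2.39, SE 0.26, adjusted p = 0.000291) and Flnc by more (log2 fold change -2.84, SE 0.26, adjusted p = 0.000138). These cross-linkers of actin were joined by Actn1, the alpha-actinin of focal adhesions (log2 fold change -2.08, SE 0.23, adjusted p = 0.000332), and by Zyx, zyxin (log2 fold change -2.27, SE 0.26, adjusted p = 0.000384). The members that did not pass the test were Csrp1 (adjusted p = 0.0754) and Mylk, the myosin light chain kinase (adjusted p = 0.186).

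Of the 35 extracellular matrix genes 34 were listed, 2 rose (5.88%, against 22.5% of all genes) and 13 fell (38.2%, against 22%). Listed members had a median log2 fold change of -0.88. Fibrillar collagens were among the falls. Col1a1, a chain of collagen I, was at 5158 and 6395 in NI and 1099 and 1228 in shSCR (log2 fold change -2.30, SE 0.31, adjusted p = 0.000811). Col5a1 and Col5a2, the chains of collagen V, had log2 fold changes of -2.29 and -2.42, and Serpinh1, the collagen chaperone of the endoplasmic reticulum, was at 2379.6 and 2596 in NI and 631 and 464 in shSCR (log2 fold change -2.20, SE 0.30, adjusted p = 0.000779). The matrix did not move as a block. Lum, the small proteoglycan lumican, was at 3.85 and 5.18 in NI and 167 and 54.2 in shSCR (log2 fold change 4.14, SE 0.54, adjusted p = 0.000673), and Mmp2, a gelatinase, was at 98.1 and 112 in NI and 917 and 409 in shSCR (log2 fold change 2.54, SE 0.44, adjusted p = 0.00245). Both were higher in each shSCR library than in each NI library. Fibronectin, Fn1, was at 5205 and 5535 in NI and 7711 and 5912 in shSCR and did not pass the test (log2 fold change 0.33, SE 0.34, adjusted p = 0.455), nor did Col3a1 (log2 fold change 0.18, SE 0.47, adjusted p = 0.78).

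Of 24 mesenchymal transcription factors and surface proteins 19 were listed, 2 rose (10.5%, against 22.5% of all genes) and 8 fell (42.1%, against 22%). Listed members had a median log2 fold change of -0.74. Vim, the vimentin of mesenchymal intermediate filaments, was at 4593 and 4625 in NI and 1282 and 1351 in shSCR (log2 fold change -1.81, SE 0.32, adjusted p = 0.00262). Cdh2, N-cadherin, was at 213 and 208 in NI and 19.11 and 16.1 in shSCR (log2 fold change -3.51, SE 0.30, adjusted p = 0.000109), and Cdh11, the cadherin of mesenchyme, was at 547 and 547 in NI and 131 and 177 in shSCR (log2 fold change -1.84, SE 0.20, adjusted p = 0.000297). Cd44, the hyaluronan receptor and a surface marker that is lost early in reprogramming MEFs, had a log2 fold change of -1.90. Snai2, a repressor of epithelial genes, fell (log2 fold change -1.25, SE 0.33, adjusted p = 0.0161), though without NI 2 or shSCR 1 the adjusted p was 0.0962 or 0.0944. Tcf4 rose (log2 fold change 0.84, SE 0.16, adjusted p = 0.00371), as did Nt5e, a surface nucleotidase (log2 fold change 3.43, SE 1.06, adjusted p = 0.0301), though without NI 1, NI 2 or shSCR 1 the adjusted p of Nt5e was between 0.085 and 0.17. Twist1 (-0.32), Zeb1 (-0.25) and Prrx1 (-0.14), regulators of mesenchymal fate, did not pass the test.

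Signalling by TGF-beta and YAP holds fibroblasts in the mesenchymal state. Of 25 ligands, receptors and targets 23 were listed, 2 rose (8.7%, against 22.5% of all genes) and 12 fell (52.2%, against 22%). Listed members had a median log2 fold change of -0.93. Among ligands, Tgfb3 was at 453 and 321 in NI and 54.8 and 59.6 in shSCR (log2 fold change -2.72, SE 0.29, adjusted p = 0.000279). Tgfb1, Tgfb2, Bmp4 and Inhba fell with it (log2 fold changes of -1.03, -1.14, -0.93 and -2.76), but none of these 4 calls was stable. The adjusted p was between 0.101 and 0.145 for Tgfb1 and between 0.113 and 0.21 for Tgfb2 without NI 1, NI 2 or shSCR 2, between 0.0869 and 0.131 for Bmp4 without NI 1, NI 2 or shSCR 1, and 0.0807 or 0.0582 for Inhba without NI 1 or NI 2. In the overexpression dataset of the series, scaled separately, Bmp4 had the opposite direction, at 20.1 and 32.3 at day 0 and 43.6 and 62.2 at day 12 with the empty vector (log2 fold change 1.00, adjusted p = 0.0335 by limma), and the difference was not tested. Receptors differed in direction. Tgfbr1 fell (log2 fold change -0.58, SE 0.17, adjusted p = 0.0263), though without any one of the 4 libraries the adjusted p was between 0.0565 and 0.14, and the co-receptor Tgfbr3 was at 36.5 and 51.4 in NI and 452 and 176 in shSCR (log2 fold change 2.68, SE 0.63, adjusted p = 0.0097), although without NI 1 or shSCR 1 the adjusted p was 0.0631 or 0.0609. Of the targets, Ccn2, connective tissue growth factor, was at 2221 and 1555 in NI and 176 and 177 in shSCR (log2 fold change -3.39, SE 0.38, adjusted p = 0.000349). Id2, an inhibitor of helix-loop-helix factors (-1.57), and Smad7, the inhibitory Smad (-0.82), fell too. Tead1, the DNA-binding partner of YAP, fell (-0.97), and Yap1 itself was at 238 and 232 in NI and 220.4 and 196 in shSCR and did not pass the test (log2 fold change -0.18, SE 0.12, adjusted p = 0.248).

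**Figure D2:**
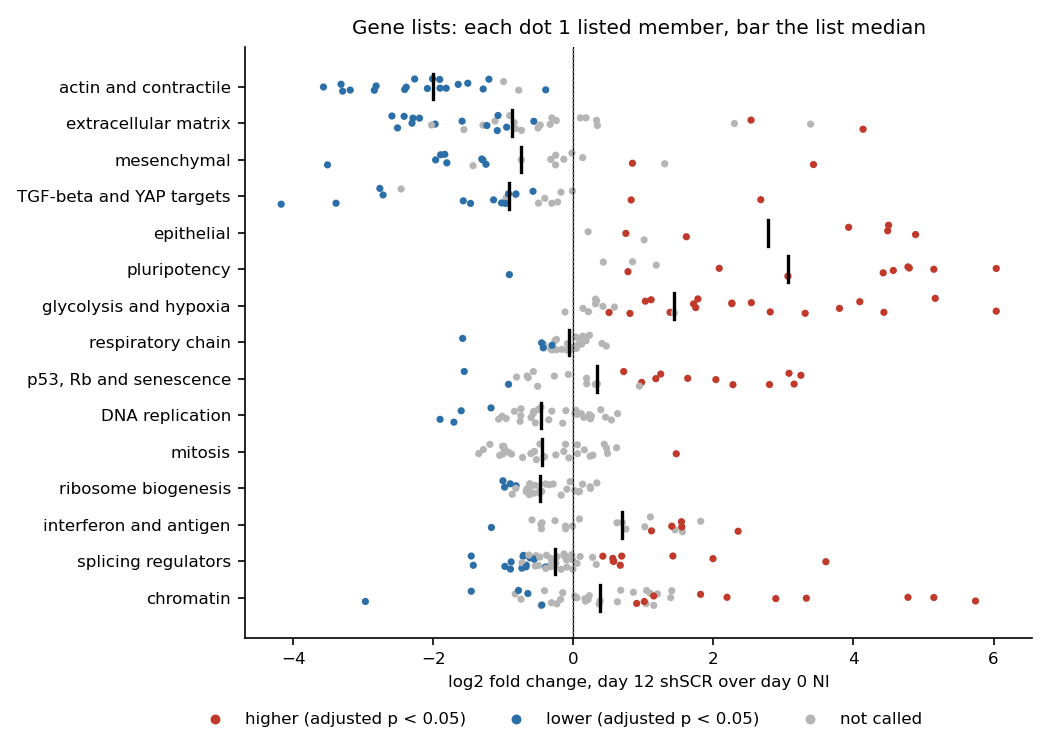
Log2 fold change (shSCR minus NI, on log2(scaled CPM + 1)) of each listed gene of 15 gene lists, each point being 1 gene, with called genes in colour and the median of each list as a bar. All listed contractile genes lie below 0 and all listed epithelial genes above 0, whereas genes of the DNA replication, mitosis and respiratory chain lists lie on both sides of 0. The listing minimum favours rises in genes low in NI.

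Only a few epithelial and pluripotency genes are listed in the expression table. Of 38 epithelial genes 8 were listed, 6 rose (75%, against 22.5% of all genes) and 0 fell (against 22%). Listed members had a median log2 fold change of 2.77. The listing minimum keeps out members low in most day 12 libraries, which favours rises in this count. Krt8 and Krt18, the paired keratins of simple epithelia, were at 6.48 and 5.04 in NI and 268 and 146 in shSCR (log2 fold change 4.89, SE 0.84, adjusted p = 0.0024) and at 14 and 10.9 in NI and 271 and 152 in shSCR (log2 fold change 3.93, SE 0.73, adjusted p = 0.00342). Dsp, the desmoplakin of desmosomes, was at 1.82 and 1.32 in NI and 67.3 and 48.2 in shSCR (log2 fold change 4.50, SE 0.46, adjusted p = 0.000225), and Spint2, an inhibitor of surface serine proteases, was at 4.46 and 2.47 in NI and 83.7 and 112 in shSCR (log2 fold change 4.49, SE 0.43, adjusted p = 0.000175). All of these were low in NI. Jup, plakoglobin, rose least (log2 fold change 0.75, SE 0.19, adjusted p = 0.0146), and without NI 2 or shSCR 2 the adjusted p was 0.0972 or 0.0825.

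Of 44 pluripotency genes 13 were listed, 9 rose (69.2%, against 22.5% of all genes) and 1 fell (7.69%, against 22%). Listed members had a median log2 fold change of 3.06. Rises are favoured by the listing minimum here too. Tet1, a methylcytosine dioxygenase of pluripotent cells, was at 4.9 and 5.26 in NI and 137 and 335 in shSCR (log2 fold change 5.15, SE 0.90, adjusted p = 0.00251). Dnmt3b, a de novo DNA methyltransferase, was at 4.45 and 4.31 in NI and 103 and 208 in shSCR (log2 fold change 4.78, SE 1.06, adjusted p = 0.0077). In these genes shSCR 2 was the higher of the 2 day 12 libraries. Trim71, an RNA-binding ubiquitin ligase that is a target of let-7, was at 4.39 and 3.6 in NI and 91 and 151 in shSCR (log2 fold change 4.57, SE 0.63, adjusted p = 0.000836), and Sall1 was at 3.34 and 3.33 in NI and 67.9 and 125 in shSCR (log2 fold change 4.43, SE 0.84, adjusted p = 0.00383). Tbx3 was expressed in the MEFs and rose further, from 20.9 and 23.4 to 97.2 and 96.7 (log2 fold change 2.08, SE 0.27, adjusted p = 0.000652). Klf2 (log2 fold change 0.43, SE 0.49, adjusted p = 0.511) and Klf5 (log2 fold change 1.18, SE 0.68, adjusted p = 0.194), 2 Krueppel-like factors, did not pass the test.

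Reads of the cassette cannot be told apart from those of the endogenous genes, so the levels of the 4 factors are those of both together. Klf4 was at 107 and 80.9 in NI and 135 and 189.9 in shSCR (log2 fold change 0.78, SE 0.19, adjusted p = 0.011). Its call did not hold when only the 4 libraries were fitted (adjusted p = 0.0582), and without NI 2 or shSCR 2 the adjusted p was 0.0819 or 0.061. Klf4 was also higher with the empty vector in the overexpression dataset of the series, whose table was scaled separately, at 90.6 and 106 at day 0 and 194 and 197 at day 12 (log2 fold change 0.99). Myc was at 199.6 and 160.4 in NI and 94.1 and 94.9 in shSCR (log2 fold change -0.91, SE 0.25, adjusted p = 0.0192) and was the 1 pluripotency gene that fell, but without NI 1, shSCR 1 or shSCR 2 the adjusted p was between 0.0681 and 0.12. In the overexpression dataset Myc had the opposite direction, at 143 and 91.7 at day 0 and 200.3 and 194 with the empty vector (log2 fold change 0.78, adjusted p = 0.0321 by limma), and the difference between the datasets was not tested. Pou5f1 and Sox2 are not listed in the table analysed here.

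For genes outside the expression table, the reads behind exon events give a view of their level, as the median number of reads over the exon events of a gene. These reads are not normalised, and the totals per library were those given above. Of the 8174 such genes with a median above 0 in any of the 4 libraries, 52.5% were higher and 13.8% lower in both shSCR libraries than in both NI libraries. For 22 of the pluripotency genes such reads were present, and all 22 were higher in both shSCR libraries than in both NI libraries. In 17 of them the median was at most 5 reads in both NI libraries. The median over the 22 genes was 0 and 0.75 reads in NI and 557 and 972 in shSCR. Pou5f1, the central factor of the network, whose reads can come from the gene or the cassette, had 13 and 26 in NI and 7330 and 13845 in shSCR (median over 3 events). Nanog, which the cassette does not hold, had 5 and 6 in NI and 2040 and 4326 in shSCR (over 2 events). Both were thus near 0 in the MEFs. Esrrb had 0 and 0 in NI and 1379 and 2384 in shSCR, Dnmt3l 1 and 0.5 in NI and 2526 and 3835 in shSCR, and Alpl, the alkaline phosphatase used to stain iPS cell colonies, 2 and 6 in NI and 645 and 1272 in shSCR. Low members were Zfp42, a marker of late reprogramming, with 0 and 0 in NI and 43 and 54 in shSCR, and Lin28b with 1 and 1 in NI and 11 and 43 in shSCR. In each of these genes shSCR 2 had more reads than shSCR 1.

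The same was found for epithelial genes. Of 28 with event reads, 27 were higher in both shSCR libraries, against the 52.5% of all such genes, and 1, Pkp1, was lower (32 and 17.5 in NI and 16 and 11 in shSCR). The medians over the genes were 1 and 1.5 reads in NI and 139.75 and 185.5 in shSCR. Cdh1, E-cadherin, had 1 and 2 in NI and 1490 and 2411 in shSCR, and Epcam, the surface marker by which reprogramming cells can be sorted, had 2 and 4 in NI and 1979 and 3044 in shSCR. Claudins followed, with 0 and 0 in NI and 572 and 805 in shSCR reads for Cldn6 and 1 and 0 in NI and 503 and 592 in shSCR for Cldn7. The epithelial splicing regulator Esrp1 had 0 and 0 in NI and 360 and 557 in shSCR, and its relative Esrp2 13.5 and 11 in NI and 67 and 63.5 in shSCR. Esrp1 thus had a median of 0 in both NI libraries, and its part in the splicing events below was not tested. Grhl2, a transcription factor of epithelial genes, had 0 and 0 in NI and 115 and 144 in shSCR. In Krt7 (150.5 and 100.5 in NI and 798 and 374 in shSCR) and Ehf (0 and 0 in NI and 137 and 33 in shSCR), shSCR 1 was the higher library.

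**Figure D3:**
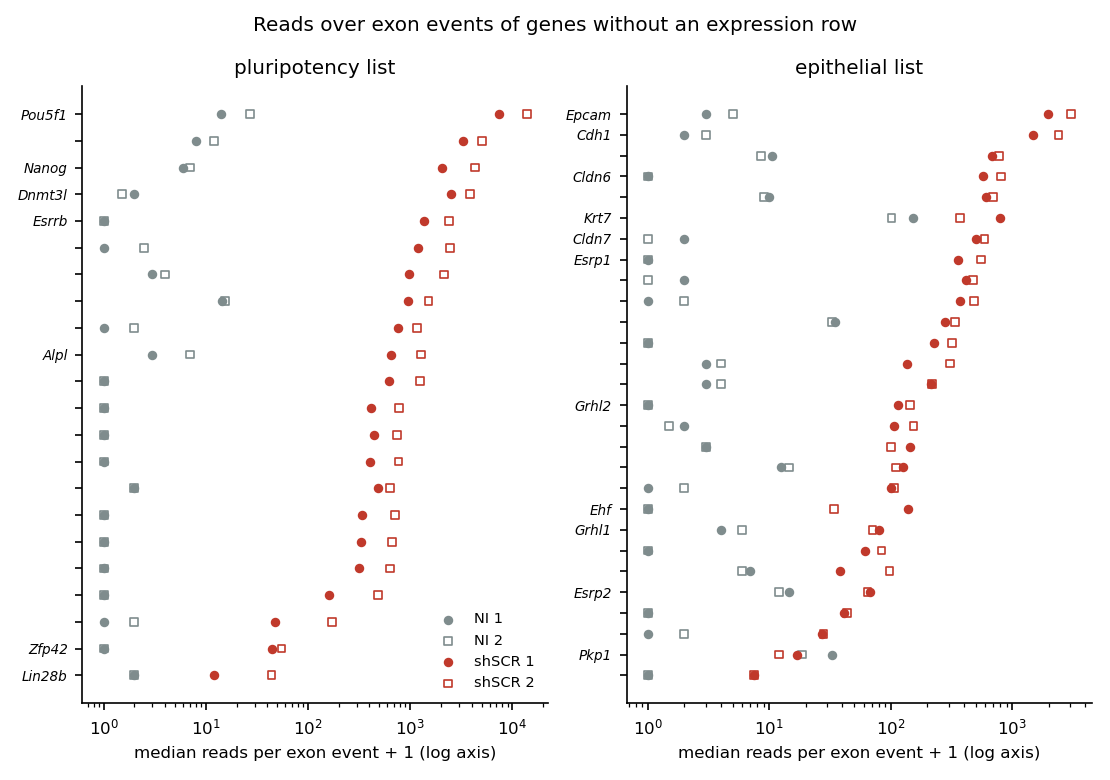
Median reads per exon event plus 1, on a log axis, of pluripotency (left) and epithelial (right) genes that are not listed in the expression table, each symbol being 1 library of NI at day 0 (grey) or shSCR at day 12 (red), with the genes described in the text named on the vertical axis. All 22 pluripotency genes and 27 of 28 epithelial genes are higher in both shSCR libraries than in both NI libraries.

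Genes of glucose metabolism were mostly higher at day 12. Of 29 genes of glycolysis and the hypoxia response 27 were listed, 18 rose (66.7%, against 22.5% of all genes) and 0 fell (against 22%). Listed members had a median log2 fold change of 1.44. Among glycolytic enzymes, Aldoc, an aldolase, was at 1.19 and 1 in NI and 69.9 and 78.7 in shSCR (log2 fold change 5.17, SE 0.22, adjusted p = 1.1e-05). Pfkm, Pfkl and Pfkp, the phosphofructokinases, had log2 fold changes of 1.72, 2.26 and 3.31. Eno2, an enolase, was at 12.5 and 12.6 in NI and 57.9 and 34.1 in shSCR (log2 fold change 1.75, SE 0.21, adjusted p = 0.000476). The enzymes with the highest levels moved little, and Gapdh, at 2582 and 2515 in NI and 2513 and 3127 in shSCR, did not pass the test (log2 fold change 0.14, SE 0.30, adjusted p = 0.736), nor did Ldha (0.32) and Pkm (0.32). Targets of the hypoxia response also rose. Pdk1, the kinase that keeps pyruvate out of the mitochondrial cycle, was at 10.6 and 10.7 in NI and 192 and 327 in shSCR (log2 fold change 4.43, SE 0.51, adjusted p = 0.000367), and Bnip3, a receptor for mitophagy, was at 5.96 and 6.56 in NI and 137 and 109 in shSCR (log2 fold change 4.09, SE 0.44, adjusted p = 0.000272). Egln3 (3.80), the oxygen sensor, and the transporters Slc2a1 (2.54) and Slc16a3 (2.26) rose too. Hif1a itself did not pass the test (log2 fold change 0.59, SE 0.85, adjusted p = 0.606).

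Of 29 respiratory chain genes 28 were listed, 0 rose and 4 fell (14.3%, against 22% of all genes), and the median log2 fold change of the listed members was -0.06. The median changed sign with the scaling, to 0.08 after the libraries were set to equal sums, with which 1 fell. That gene was Cycs, cytochrome c, at 165 and 151 in NI and 46.5 and 58.7 in shSCR (log2 fold change -1.58, SE 0.16, adjusted p = 0.000195). The other calls were small. Ndufs1 of complex I had a log2 fold change of -0.43, and Sdhb and Sdhd of complex II of -0.45 and -0.30. None of these 3 was called at equal sums (adjusted p = 0.164, 0.144 and 0.346), nor without NI 1, NI 2 or shSCR 1 (adjusted p between 0.0661 and 0.229).

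Cell cycle genes gave few calls, and their 2 shSCR libraries lay apart. Of 36 DNA replication genes 33 were listed, 0 rose and 4 fell (12.1%, against 22% of all genes), and the median log2 fold change of the listed members was -0.46. The 4 were enzymes of nucleotide supply. Tk1, thymidine kinase, was at 94.8 and 104 in NI and 27.8 and 31.8 in shSCR (log2 fold change -1.71, SE 0.26, adjusted p = 0.00144), and Tyms, thymidylate synthase, at 74.7 and 87.4 in NI and 28.7 and 43.2 in shSCR (log2 fold change -1.18, SE 0.25, adjusted p = 0.00622). Rrm1 and Rrm2 encode the subunits of ribonucleotide reductase. Rrm1 fell (log2 fold change -1.60, SE 0.16, adjusted p = 0.00018), and so did Rrm2 (log2 fold change -1.90, SE 0.65, adjusted p = 0.0434), though without NI 1, NI 2 or shSCR 1 the adjusted p was between 0.114 and 0.215. Mcm genes of the replicative helicase did not pass the test, such as Mcm2 at 156 and 169.8 in NI and 123 and 226 in shSCR (log2 fold change 0.04, SE 0.73, adjusted p = 0.97). Of 32 mitotic genes 32 were listed, 1 rose (3.1%, against 22.5% of all genes) and 0 fell (against 22%). Listed members had a median log2 fold change of -0.45. The 1 called gene was Pttg1, securin, at 20.9 and 27.4 in NI and 55.3 and 83.7 in shSCR (log2 fold change 1.47, SE 0.37, adjusted p = 0.0134), and without NI 1 or shSCR 2 the adjusted p was 0.085 or 0.0803. Cdk1, the mitotic kinase, was at 239 and 269 in NI and 74.7 and 130.3 in shSCR and missed the threshold (log2 fold change -1.35, SE 0.48, adjusted p = 0.052).

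Several inhibitors of the cell cycle rose. Of 27 p53 and Rb pathway genes 25 were listed, 11 rose (44%, against 22.5% of all genes) and 2 fell (8%, against 22%). Listed members had a median log2 fold change of 0.34. At equal sums 11 rose, 1 fell and Cdk4 was not called (adjusted p = 0.0643 by limma). Cdkn2a (chr4:89274471-89294653, - strand), the locus of the inhibitors p16 and Arf and a barrier to reprogramming, was at 9.05 and 11.2 in NI and 108 and 100.4 in shSCR (log2 fold change 3.25, SE 0.14, adjusted p = 1.1e-05). Cdkn1c, an inhibitor from an imprinted locus, was at 7.51 and 6.48 in NI and 55.5 and 53.7 in shSCR (log2 fold change 2.80, SE 0.30, adjusted p = 0.000276), and Cdkn1b at 46.1 and 52.8 in NI and 129 and 98.6 in shSCR (log2 fold change 1.18, SE 0.16, adjusted p = 0.000779). Targets of p53 were split. Trp53inp1 was at 53.3 and 54.9 in NI and 465 and 465 in shSCR (log2 fold change 3.08, SE 0.14, adjusted p = 1.16e-05), and Bbc3, the apoptosis gene also called Puma, at 7.26 and 5.79 in NI and 21.6 and 22.9 in shSCR (log2 fold change 1.63, SE 0.17, adjusted p = 0.000216). By contrast Cdkn1a, the inhibitor p21, was at 358 and 272 in NI and 482 and 312 in shSCR (log2 fold change 0.31, SE 0.34, adjusted p = 0.488) and Mdm2 at 333 and 245 in NI and 372 and 284 in shSCR (log2 fold change 0.19, SE 0.31, adjusted p = 0.654), and neither passed the test. Igfbp3, a secreted binding protein of insulin-like growth factors, rose as well (log2 fold change 3.15, SE 0.41, adjusted p = 0.00068). Rbl1 (-1.56) and Cdk4 (-0.93) were the 2 genes that fell, and Rb1 rose (log2 fold change 2.04, SE 0.46, adjusted p = 0.0083). Without shSCR 1 the adjusted p was 0.0548 for Rbl1 and 0.0515 for Rb1, and for Cdk4 it was between 0.0786 and 0.111 without NI 1, NI 2 or shSCR 1.

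Of 30 ribosome biogenesis genes 30 were listed, 0 rose and 4 fell (13.3%, against 22% of all genes), and the median log2 fold change of the listed members was -0.48, and 2 fell after the libraries were set to equal sums. Nop16 had a log2 fold change of -0.98, Utp20 of -0.90, and Bop1 and Nop2, which act in the large ribosomal subunit, of -0.82 and -1.01. The group summed to 9360.2 and 8601 in NI and 5952 and 9413 in shSCR, so that shSCR 2 was above both NI libraries and shSCR 1 below both. For Bop1, without any one of the 4 libraries the adjusted p was between 0.0578 and 0.164, for Nop2, without NI 1, NI 2 or shSCR 1 the adjusted p was between 0.101 and 0.202, for Utp20, without NI 1 or shSCR 1 the adjusted p was 0.0543 or 0.0549, and for Nop16, without NI 1 or shSCR 1 the adjusted p was 0.0764 or 0.0703.

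Of 42 chromatin regulators 42 were listed, 10 rose (23.8%, against 22.5% of all genes) and 5 fell (11.9%, against 22%). Listed members had a median log2 fold change of 0.38, and at equal sums 10 rose and 3 fell. The share that rose was thus near that of all genes. Tet2, a dioxygenase like Tet1, was at 10.4 and 12.2 in NI and 67 and 120.2 in shSCR (log2 fold change 2.89, SE 0.43, adjusted p = 0.00128). The demethylases Kdm4b (log2 fold change 1.82, SE 0.18, adjusted p = 0.000208) and Kdm6b (log2 fold change 0.90, SE 0.13, adjusted p = 0.00117) rose, as did Jarid2, a cofactor of Polycomb repressive complex 2 (log2 fold change 3.33, SE 0.69, adjusted p = 0.00557). Hmga2, an architectural protein of embryonic and mesenchymal cells, was at 1053 and 968 in NI and 113 and 145 in shSCR (log2 fold change -2.97, SE 0.45, adjusted p = 0.00134). Suv39h1, a methyltransferase of heterochromatin, was at 50.9 and 54.7 in NI and 16.6 and 20.8 in shSCR (log2 fold change -1.46, SE 0.22, adjusted p = 0.00129). The maintenance methyltransferase Dnmt1 was at 269 and 312 in NI and 176 and 251 in shSCR and did not pass the test (log2 fold change -0.46, SE 0.35, adjusted p = 0.318).

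Splicing regulators bear on the second measurement. Of 62 such genes 53 were listed, 9 rose (17%, against 22.5% of all genes) and 13 fell (24.5%, against 22%), and the median log2 fold change of the listed members was -0.27, and at equal sums 9 rose and 5 fell. Rbm47, an RNA-binding protein of epithelia, had the largest rise of the list, at 1.1 and 1.78 in NI and 24.3 and 33.3 in shSCR (log2 fold change 3.61, SE 0.32, adjusted p = 0.000132). Mbnl1, which holds back splicing patterns of pluripotent cells, was at 309.7 and 295 in NI and 131 and 91.7 in shSCR (log2 fold change -1.46, SE 0.20, adjusted p = 0.000799), and Celf2 fell too (log2 fold change -1.43, SE 0.22, adjusted p = 0.00129). Clk1, a kinase of SR proteins, was at 58.2 and 57.2 in NI and 166 and 147 in shSCR (log2 fold change 1.42, SE 0.16, adjusted p = 0.000354), and its relatives Clk2 (0.58) and Clk4 (0.57) rose, though the adjusted p was between 0.0564 and 0.0909 for Clk2 without NI 1, NI 2 or shSCR 2 and 0.0514 for Clk4 without NI 2. Srsf5, an SR protein, rose (log2 fold change 0.69, SE 0.11, adjusted p = 0.00149), and Hnrnpll fell (log2 fold change -0.71, SE 0.12, adjusted p = 0.00232). The polypyrimidine tract binding proteins fell or did not pass the test, Ptbp2 falling (log2 fold change -0.56, SE 0.17, adjusted p = 0.0256, but between 0.0568 and 0.145 without NI 1, NI 2 or shSCR 1 and 0.129 at equal sums) and Ptbp1 being at 402 and 423 in NI and 246 and 324 in shSCR (log2 fold change -0.55, SE 0.27, adjusted p = 0.14). The 3 proteins that the series perturbed did not pass the test. Cpsf3, the endonuclease of 3′ end cleavage, was at 84.7 and 82.2 in NI and 86.7 and 118 in shSCR (log2 fold change 0.27, SE 0.28, adjusted p = 0.453), Hnrnpul1 at 186 and 198 in NI and 156 and 185 in shSCR (log2 fold change -0.17, SE 0.27, adjusted p = 0.63), and Tia1 at 63.7 and 67.6 in NI and 69.7 and 66.7 in shSCR (log2 fold change 0.05, SE 0.11, adjusted p = 0.729).

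Of 36 genes of the interferon response and antigen presentation 23 were listed, 5 rose (21.7%, against 22.5% of all genes) and 1 fell (4.35%, against 22%), and the median log2 fold change of the listed members was 0.70. Bst2, tetherin, was at 22.3 and 32.7 in NI and 171 and 119 in shSCR (log2 fold change 2.35, SE 0.47, adjusted p = 0.0047). Tap1, Tap2 and Tapbp, which load peptides on MHC class I, had log2 fold changes of 1.12, 1.55 and 1.41, and Stat2 of 1.54. Ifit2, an interferon-induced inhibitor of translation, fell (log2 fold change -1.17, SE 0.34, adjusted p = 0.0246). The group summed to 636 and 809 in NI and 1631 and 799 in shSCR, so that shSCR 2 lay within the range of the NI libraries and shSCR 1 above it. Calls were lost in Tap1 (without NI 1 the adjusted p was 0.0632), Tap2 (without NI 1 or shSCR 1 the adjusted p was 0.085 or 0.0746), Stat2 (without NI 1 or shSCR 1 the adjusted p was 0.114 or 0.0978), Tapbp (without NI 1, NI 2 or shSCR 1 the adjusted p was between 0.0919 and 0.24) and Ifit2 (without any one of the 4 libraries the adjusted p was between 0.0647 and 0.124).

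The measured macrophage, keratinocyte and trophoblast markers were higher in the day 12 libraries. Endoderm, endothelial, neural, muscle, adipocyte and cartilage markers moved in both directions. Counts by event reads stand against the 52.5% higher and 13.8% lower of all genes outside the table. Of 12 macrophage markers, 3 were listed and rose, Lyz2, Cd68 (log2 fold change 2.21, SE 0.28, adjusted p = 0.000555) and Csf1r (log2 fold change 2.31, SE 0.47, adjusted p = 0.00501), and their sum was 10.6 and 9.57 in NI and 300.4 and 171 in shSCR. All 8 other macrophage markers with event reads were higher in both shSCR libraries, among them Adgre1 (0 and 1 in NI and 320 and 99 in shSCR) and C1qa (0 and 1 in NI and 90 and 190 in shSCR). Ptprc, which defines leukocytes, had 0 and 1 in NI and 13 and 11 in shSCR reads. In keratinocyte markers, 2 of 12 were listed and rose, Sfn (log2 fold change 1.06, SE 0.35, adjusted p = 0.0377) and Perp (log2 fold change 2.15, SE 0.25, adjusted p = 0.000422), and the sum was 31.2 and 20.3 in NI and 70.3 and 99.1 in shSCR. For Sfn, without NI 2, shSCR 1 or shSCR 2 the adjusted p was between 0.101 and 0.226. All 8 others with event reads were higher in both shSCR libraries. Krt14 had 21 and 21 in NI and 339 and 32 in shSCR reads and Krt5 0 and 1 in NI and 3 and 9.5 in shSCR. Of the 8 trophoblast markers none was listed, and the 6 with event reads were all higher in both shSCR libraries. They included Tfap2c (0 and 0 in NI and 410 and 388 in shSCR) and Plac1 (3 and 4 in NI and 523 and 214 in shSCR), whereas Cdx2 had 0 and 0 in NI and 2.5 and 3.5 in shSCR reads. Of 9 endoderm markers, Lama1 rose (log2 fold change 4.44, SE 0.26, adjusted p = 3.55e-05) and Dab2 did not pass the test, with a sum of 114 and 112 in NI and 209 and 185 in shSCR, and of the 7 others with event reads 2 were higher and 3 lower in both shSCR libraries. Gata6 had 93 and 161 reads in NI and 57 and 37 in shSCR, Gata4 25 and 33 in NI and 19 and 21 in shSCR, and Sox17 0 and 0 in NI and 1 and 3 in shSCR.

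Of 10 endothelial markers, Tek rose (log2 fold change 3.60, SE 0.49, adjusted p = 0.00078) and Flt1 did not pass the test (log2 fold change -1.92, SE 0.70, adjusted p = 0.0554), with a sum of 137 and 112 in NI and 78.2 and 48.3 in shSCR. Of the 7 others with event reads 5 were higher and 2 lower in both shSCR libraries. Cdh5 had 5 and 1 in NI and 193 and 125 in shSCR reads and Kdr 75 and 62.5 in NI and 3 and 9 in shSCR. Of 12 neural markers, Tubb3 (-2.24) and Nes (-2.12) fell and Stmn2 (2.18) rose, with a sum of 329 and 252 in NI and 159 and 283 in shSCR, and of the 7 others with event reads 4 were higher and 2 lower in both shSCR libraries. Dcx had a median of 0 reads in all 4 libraries. For Stmn2, without NI 1, NI 2 or shSCR 2 the adjusted p was between 0.0962 and 0.159. In the muscle list, Des was the 1 listed gene and fell, at 54.1 and 54.8 in NI and 13.8 and 15.4 in shSCR (log2 fold change -1.83, SE 0.50, adjusted p = 0.0188), but without any one of the 4 libraries the adjusted p was between 0.061 and 0.0791. Of the 12 others 2 were higher and 6 lower in both shSCR libraries. The 2 were Mylpf, a myosin light chain of fast muscle, with 31 and 43 reads in NI and 903 and 1407 in shSCR, and Tnnt1, a troponin of slow muscle, with 8 and 13 in NI and 123 and 211 in shSCR. Acta1, skeletal muscle actin, went the other way, with 712.5 and 315 in NI and 17 and 64 in shSCR, and Myod1 had 3 and 0 in NI and 0 and 0 in shSCR. Of 12 adipocyte and cartilage markers 6 were listed, Comp rose (1.40), Col2a1 (-3.28), Sox9 (-1.23) and Runx2 (-0.74) fell, and the sum was 286 and 318 in NI and 232 and 156 in shSCR. None of these 4 calls was stable, with an adjusted p of 0.0664 to 0.08 for Col2a1 and 0.0775 to 0.127 for Comp without any one of the 4 libraries, 0.102 to 0.198 for Runx2 without NI 1, NI 2 or shSCR 2, and 0.0689 for Sox9 without NI 2. No germ cell gene of a list of 17 was listed, and 12 of the 13 with event reads were higher in both shSCR libraries, such as Rhox5 (10.5 and 15 in NI and 4322 and 4572 in shSCR), Trap1a (0 and 0 in NI and 1715 and 2963 in shSCR) and Sycp3 (3 and 1 in NI and 326 and 511 in shSCR). The part of other cell types in the results above was not tested.

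Alternative splicing changed along with expression. By the rule of the study, an event differed when the means differed by at least 10 PSI and the libraries of the groups were separated by at least 5 PSI. By this rule 4663 of 382237 covered events (1.22%) in 2604 genes differed, 2866 higher (0.75%) and 1797 lower (0.47%) at day 12. Near the threshold, 570 of them lay within 1 PSI above it and 628 events within 1 PSI below. A test of the reads, by limma on log2 of inclusion over exclusion reads, covered the 97220 events with at least 10 inclusion and 10 exclusion reads over the 4 libraries. It called 9194 events (9.46%), of which 6378 moved by less than 10 PSI. Its calls fell to 3955 without NI 1, 3343 without NI 2 and 3973 without shSCR 1. Both criteria were met by 2753 events (2.83%), 1762 higher (1.81%) and 991 lower (1.02%), and only these are named as changed below. They comprised 1064 cassette exons (4.51% of those tested), 938 retained introns (2.03%), 338 alternative 3′ splice sites (2.06%) and 413 alternative 5′ splice sites (3.76%), with the alternative sites of 1 event counted separately.

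Among cassette exons, 694 of 23589 tested (2.94%) were higher and 370 (1.57%) lower at day 12. The largest rise was in Wsb1, the substrate receptor of a ubiquitin ligase, in an exon of 164 nt (chr11:79243412-79243575, - strand) with a PSI of 16.7 and 15.6 in NI and 75.9 and 74.5 in shSCR (change of 59 PSI, log2 inclusion ratio 3.97, SE 0.14, adjusted p = 5.74e-11). No exon with these bounds is annotated in the gene. Nasp, a histone chaperone, gained an exon of 975 nt (chr4:116610403-116611377, - strand) that is included in its long, testicular form, with a PSI of 18.2 and 19 in NI and 74.7 and 80.7 in shSCR (change of 59 PSI, log2 inclusion ratio 3.94, SE 0.77, adjusted p = 0.0287). This exon is coding, but without any one of the 4 libraries the adjusted p was between 0.0993 and 0.14. Dnm1l, the dynamin-related GTPase that divides mitochondria, included its coding exon of 33 nt (chr16:16318445-16318477, - strand) at 20.2 and 19 in NI and 74.7 and 77.4 in shSCR (change of 56.4 PSI, log2 inclusion ratio 3.70, SE 0.38, adjusted p = 0.000272), on 584 to 1242 reads per library. Slc9a5, a sodium-proton exchanger, had a coding exon of 71 nt at 22.1 and 21.3 in NI and 76.6 and 82.7 in shSCR (change of 58 PSI, log2 inclusion ratio 3.75, SE 0.28, adjusted p = 3.87e-07). In all of these the minor form of the MEFs became the major form at day 12. Trim46, a microtubule-associated protein, included an exon of 38 nt at 28.6 and 27.7 in NI and 75.6 and 93.1 in shSCR, on only 41 to 78 reads per library. Ppip5k1, an inositol pyrophosphate kinase, had an unannotated exon of 65 nt at 15.8 and 22.7 in NI and 73.5 and 70.9 in shSCR. Dgkh, a diacylglycerol kinase, had an exon of 126 nt at 14.1 and 6.93 in NI and 58.7 and 74.5 in shSCR, and without any one of the 4 libraries the adjusted p was between 0.0531 and 0.228. Hnrnpa2b1, a nuclear RNA-binding protein, had an unannotated exon of 73 nt (chr6:51461983-51462055, - strand) at 11.3 and 11.1 in NI and 65.4 and 60.1 in shSCR (change of 51.5 PSI, log2 inclusion ratio 3.73, SE 0.19, adjusted p = 9.5e-09).

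Among the exons that were lower, Rbmx, an RNA-binding protein encoded on the X chromosome, had an unannotated segment of 1253 nt (chrX:57386141-57387393, - strand) with a PSI of 77.2 and 82 in NI and 7.82 and 11.7 in shSCR (change of -69.8 PSI, log2 inclusion ratio -5.09, SE 0.30, adjusted p = 4e-08). Itga6, the laminin receptor integrin alpha 6, skipped an exon of 130 nt (chr2:71853534-71853663, + strand) that is known to set its cytoplasmic tail, with a PSI of 76.4 and 84.6 in NI and 23.4 and 18.8 in shSCR (change of -59.4 PSI, log2 inclusion ratio -3.92, SE 0.31, adjusted p = 5.93e-06). Both switched from mostly included to mostly skipped. Mtf2, a Polycomb-like partner of Polycomb repressive complex 2, had an unannotated exon of 198 nt at 87.6 and 75.2 in NI and 23.3 and 23.2 in shSCR (change of -58.1 PSI, log2 inclusion ratio -3.62, SE 0.50, adjusted p = 0.000218), with 33 and 34 reads in NI. Gemin7, a component of the SMN complex, had a non-coding exon of 236 nt at 90.9 and 94.9 in NI and 47 and 32.8 in shSCR. Cit, the citron kinase of cytokinesis, had an exon of 45 nt at 71.7 and 56.8 in NI and 16.4 and 11.4 in shSCR. The other falls were in exons that the MEFs included almost always. Plod2, which hydroxylates lysines of collagen, had its alternative exon of 63 nt (chr9:92601985-92602047, + strand) at 93 and 93.7 in NI and 60.2 and 30 in shSCR (change of -48.3 PSI, log2 inclusion ratio -4.10, SE 0.77, adjusted p = 0.0245). The 2 shSCR libraries lay far apart here, without NI 1 or NI 2 the adjusted p was 0.119 or 0.142, and with only the 4 libraries fitted it was 0.112. Tbc1d23, which tethers vesicles at the Golgi, had an exon of 45 nt at 91.9 and 95.2 in NI and 51 and 42.1 in shSCR, and without any one of the 4 libraries the adjusted p was between 0.0614 and 0.142. Foxm1, a transcription factor of mitotic genes, had a coding exon of 45 nt at 98.1 and 98.8 in NI and 56.1 and 47.3 in shSCR (change of -46.7 PSI, log2 inclusion ratio -5.80, SE 0.84, adjusted p = 0.0043), and without NI 1 or NI 2 the adjusted p was 0.0509 or 0.0558.

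**Figure D4:**
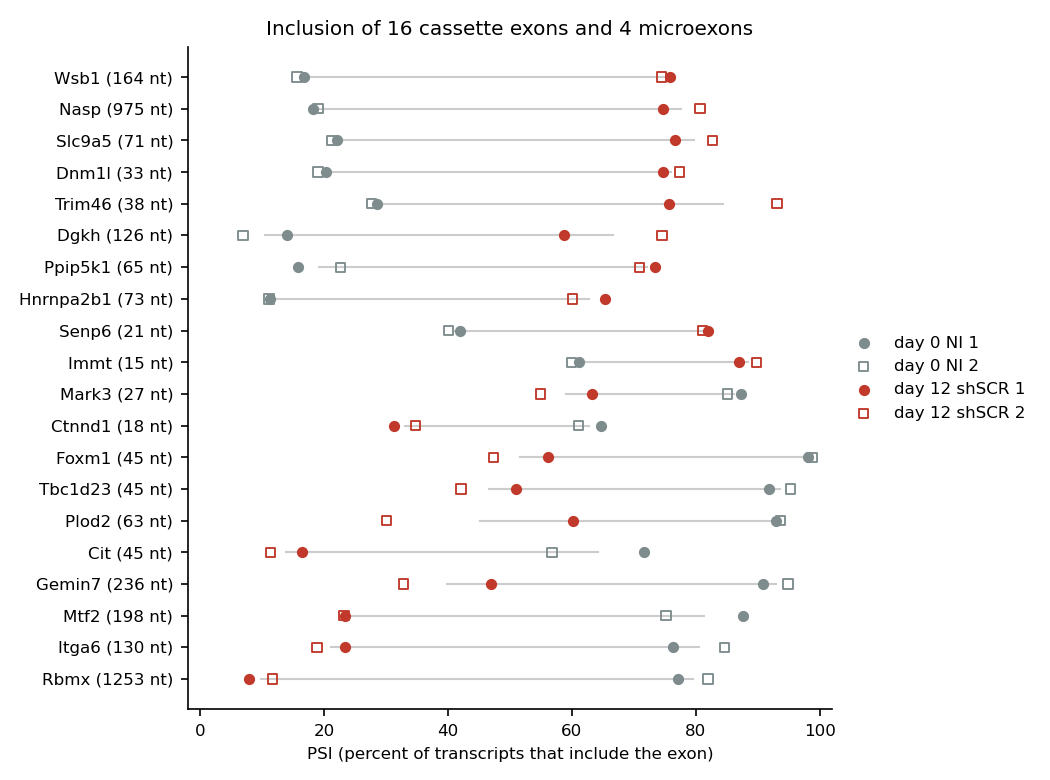
PSI, in percent of transcripts that include the exon, of 16 cassette exons and 4 microexons with the largest changes among those that met both criteria, each symbol being 1 library of NI at day 0 (grey) or shSCR at day 12 (red), with a grey line between the group means. The groups are at least 5 PSI apart in every exon shown, as their choice required, and the 2 shSCR symbols lie furthest apart for Plod2 (60.2 and 30).

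Microexons, of 3 to 27 nt, are too short to hold a whole protein domain and insert a few residues. Of 360 tested, 24 (6.67%) met both criteria, 16 higher (4.44%) and 8 lower (2.22%), against 4.51% of all cassette exons. The following exons are shown because they are the 4 largest microexon changes that met both criteria, the 33 nt exon of Dnm1l, and 2 microexons assayed by the study, of Pcnt and Afdn. They come from GENCODE M21 transcripts on GRCm38 (mm10) and read 5′ to 3′ on the strand of the gene. Capitals mark the exon, and lower case the 10 bases of the neighbouring exon on either side.
Dnm1l 33 nt, chr16:16318445-16318477, - strand: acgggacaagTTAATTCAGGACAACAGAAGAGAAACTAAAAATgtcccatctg
Senp6 21 nt, chr9:80098886-80098906, + strand: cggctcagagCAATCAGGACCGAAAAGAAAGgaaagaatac
Ctnnd1 18 nt, chr2:84612532-84612549, - strand: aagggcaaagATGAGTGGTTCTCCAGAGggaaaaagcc
Immt 15 nt, chr6:71866726-71866740, + strand: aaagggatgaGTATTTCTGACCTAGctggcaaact
Mark3 27 nt, chr12:111651958-111651984, + strand: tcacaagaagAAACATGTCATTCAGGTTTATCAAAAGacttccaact
Pcnt 21 nt, chr10:76403624-76403644, - strand: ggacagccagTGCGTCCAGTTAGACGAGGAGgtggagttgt
Afdn 21 nt, chr17:13848355-13848375, + strand: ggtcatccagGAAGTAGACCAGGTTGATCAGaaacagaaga
All 7 have a length that is a multiple of 3. The exon of Senp6, a SUMO protease, was included at 41.9 and 40.1 in NI and 82 and 81.1 in shSCR (change of 40.5 PSI, log2 inclusion ratio 2.65, SE 0.20, adjusted p = 3.61e-07). That of Ctnnd1, the p120 catenin that stabilises cadherins, was included at 64.6 and 61 in NI and 31.3 and 34.8 in shSCR (change of -29.8 PSI, log2 inclusion ratio -1.77, SE 0.17, adjusted p = 5.35e-06). Senp6 gained and Ctnnd1 lost its exon, and both calls held when any library was left out. Immt, which shapes the cristae of mitochondria, gained its exon, with a PSI of 61.1 and 60 in NI and 86.9 and 89.8 in shSCR (change of 27.8 PSI, log2 inclusion ratio 2.29, SE 0.48, adjusted p = 0.0225), and without any one of the 4 libraries the adjusted p was between 0.0979 and 0.12. Mark3, a kinase of microtubule-associated proteins, lost its exon, with a PSI of 87.2 and 85.1 in NI and 63.2 and 54.9 in shSCR (change of -27.1 PSI, log2 inclusion ratio -2.10, SE 0.45, adjusted p = 0.0196), and without any one of the 4 libraries the adjusted p was between 0.0519 and 0.128.

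Of the exons that the study assayed, those of Pcnt and Afdn had large shifts in PSI that met the PSI rule without passing the read test. Pcnt, the pericentrin of centrosomes, had a PSI of 100 and 100 in NI and 31.9 and 20.4 in shSCR (change of -73.9 PSI, adjusted p = 0.107 by limma), on 60 to 137 reads per library. Afdn, the afadin of adherens junctions, had a PSI of 79.7 and 84.9 in NI and 29.9 and 14.8 in shSCR (change of -59.9 PSI, adjusted p = 0.0695). In both the groups lay far apart, and the shSCR libraries also lay apart from each other. Numb, an inhibitor of Notch, had an exon of 147 nt at 8.81 and 10.8 in NI and 20.3 and 40.7 in shSCR (adjusted p = 0.112). The exon of Spag9, a scaffold of JNK signalling, was the assayed exon that passed both criteria beside Plod2, with 39 nt and a PSI of 60.4 and 64.5 in NI and 45.3 and 37.2 in shSCR (change of -21.2 PSI, log2 inclusion ratio -1.24, SE 0.23, adjusted p = 0.0028), though without weights on the reads the adjusted p was 0.0913. The exons of Grhl1 and Lef1 were not covered in all 4 libraries.

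Introns changed mostly towards retention. Of 46217 tested, 694 (1.5%) were more and 244 (0.528%) less retained at day 12. The introns with more retention had a median PSI of 11.2 in NI and 27.9 in shSCR, and those with less retention 30.8 and 12.9. Over all 46217 the medians were 2.1 and 2.85. Not every such event is a whole retained intron, since 186 of the 694 (26.8%) hold an annotated exon, against 36 of the 244 (14.8%) and 8.72% of all tested introns. Klhl13, an adaptor of a cullin ubiquitin ligase, had an intron of 3371 nt (chrX:23361585-23364955, - strand) with a PSI of 1.89 and 4.35 in NI and 86.2 and 85.3 in shSCR (change of 82.7 PSI, log2 inclusion ratio 6.59, SE 1.09, adjusted p = 0.00193). Only 27 and 48 reads covered it in NI, against 674 and 620 in shSCR. In it without NI 2 the adjusted p was 0.0921. Des, the desmin of muscle, had one of 1165 nt (chr1:75360993-75362157, + strand) at 1.5 and 1.57 in NI and 63.9 and 74 in shSCR (change of 67.4 PSI, log2 inclusion ratio 6.74, SE 0.81, adjusted p = 0.000144), and its expression fell, as given above. Acbd4, which binds acyl-CoA, had an intron of 448 nt that holds 2 annotated exons. This intron was at 8.51 and 24.2 in NI and 81.5 and 69.2 in shSCR, on 41 to 51 reads. That of Hnrnpa2b1 (1977 nt, chr6:51461434-51463410, - strand) was at 24.1 and 23.3 in NI and 81.3 and 78.1 in shSCR (change of 56 PSI, log2 inclusion ratio 3.66, SE 0.24, adjusted p = 1.71e-06). It holds 3 annotated exons and also the unannotated exon of 73 nt given above, so that these 2 events are not independent.

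Introns with less retention at day 12 included 3 with few reads in NI. Tmc4, a channel-like membrane protein, had an intron of 655 nt at 100 and 100 in NI and 23 and 30 in shSCR (change of -73.5 PSI, log2 inclusion ratio -6.14, SE 1.12, adjusted p = 0.00216), on 23 to 91 reads per library. Cfp, the properdin of complement, had an intron of 88 nt at 87.1 and 100 in NI and 23.5 and 21 in shSCR, and without any one of the 4 libraries the adjusted p was between 0.0822 and 0.236. Platr16, a non-coding RNA of pluripotent cells, had one of 1760 nt at 79.9 and 77.4 in NI and 16.8 and 10.8 in shSCR, and without any one of the 4 libraries the adjusted p was between 0.0943 and 0.204. None of the 3 had over 211 reads in an NI library. Lima1, which binds and bundles actin, had one of 6833 nt (chr15:99819959-99826791, - strand) at 96.6 and 98.2 in NI and 44.1 and 28 in shSCR (change of -61.4 PSI, log2 inclusion ratio -5.99, SE 0.70, adjusted p = 0.00182), on 873 to 1154 reads per library.

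The largest shifts of splice sites included genes of translation and of chromosome segregation. At 3′ sites, Eif3h, a subunit of a translation initiation factor, had a site at 70.4 and 67.6 in NI and 14.9 and 0 in shSCR PSI (change of -61.5 PSI, log2 inclusion ratio -3.72, SE 0.62, adjusted p = 0.00106), on 21 to 50 reads per library. Rps24, a protein of the small ribosomal subunit, had a 3′ site at 11.5 and 19.6 in NI and 83.7 and 66 in shSCR (change of 59.3 PSI, log2 inclusion ratio 3.31, SE 0.77, adjusted p = 0.0145), on 15 to 30 reads per library, and without NI 1, NI 2 or shSCR 1 the adjusted p was between 0.061 and 0.111. Its 5′ site rested on more reads and was at 9.72 and 13.6 in NI and 62.9 and 59.3 in shSCR (change of 49.4 PSI, log2 inclusion ratio 3.48, SE 0.30, adjusted p = 2.52e-06). Cenpc1, a centromere protein, had a 3′ site at 54.6 and 65.9 in NI and 14.4 and 15.4 in shSCR (change of -45.3 PSI, log2 inclusion ratio -2.96, SE 0.49, adjusted p = 0.00106), on 32 to 61 reads per library. Among 5′ sites, Mcf2l, an exchange factor of small GTPases, moved from 15.9 and 21.2 PSI to 100 in both shSCR libraries (change of 81.5 PSI, log2 inclusion ratio 7.53, SE 1.04, adjusted p = 0.000579). This shift rested on only 18 and 18 reads in NI and 48 and 53 in shSCR. Knl1, a scaffold of kinetochores, had a 5′ site at 93.1 and 75.1 in NI and 35.3 and 34.7 in shSCR, and without NI 1 or shSCR 2 the adjusted p was 0.0598 or 0.09. Of these only Rps24 and Mcf2l favoured the named site at day 12. The site of Knl1 rested on 17 to 49 reads per library.

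Splicing lists were described by their counts beside the 2.83% of all tested events that passed both criteria. In 45 genes with splice forms that switch between epithelial and mesenchymal cells, 44 of 842 tested events (5.23%) in 25 genes passed both criteria, 24 higher and 20 lower at day 12. Besides Itga6, Plod2 and Rps24 these included Ktn1, the kinectin of the endoplasmic reticulum, in which an exon of 72 nt (chr14:47725929-47726000, + strand) was at 31.8 and 27.5 in NI and 76.2 and 70.8 in shSCR (change of 43.9 PSI, log2 inclusion ratio 2.73, SE 0.22, adjusted p = 1.95e-06). In 47 genes of the cytoskeleton and adhesion, 31 of 1024 tested events (3.03%) in 21 genes passed both criteria, 12 higher and 19 lower at day 12. Sorbs2, an adaptor of focal adhesions, had an exon of 45 nt at 61.5 and 58.4 in NI and 21.7 and 31.8 in shSCR (change of -33.2 PSI, log2 inclusion ratio -2.07, SE 0.31, adjusted p = 0.000427). Epb41l1, a protein that links actin to the membrane, had an exon of 408 nt at 70.3 and 69 in NI and 39.7 and 34.5 in shSCR (change of -32.5 PSI, log2 inclusion ratio -1.94, SE 0.18, adjusted p = 3.49e-06).

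In 53 genes of RNA-binding proteins, 67 of 868 tested events (7.72%) in 28 genes passed both criteria, 51 higher and 16 lower at day 12. Tia1, which promotes the use of weak 5′ splice sites, gained an exon of 66 nt (chr6:86423606-86423671, + strand), with a PSI of 22.9 and 20.9 in NI and 70.4 and 69.7 in shSCR (change of 48.1 PSI, log2 inclusion ratio 3.04, SE 0.23, adjusted p = 3.87e-07), while its expression did not pass the test. Srpk2, a kinase of SR proteins, lost an exon of 64 nt, with a PSI of 79.9 and 79 in NI and 38 and 35.1 in shSCR (change of -42.9 PSI, log2 inclusion ratio -2.70, SE 0.33, adjusted p = 7.7e-05). In Srsf5 a 5′ site of the gene fell from 73.1 and 75.4 to 33.2 and 40.2 PSI (change of -37.6 PSI, log2 inclusion ratio -2.32, SE 0.15, adjusted p = 6.15e-08), on 2325 to 5151 reads per library.

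In 17 genes of mitochondrial dynamics, 16 of 192 tested events (8.33%) in 6 genes passed both criteria, 13 higher and 3 lower at day 12. Besides the exons of Dnm1l and Immt above, Immt had a further, unannotated exon of 90 nt (chr6:71853179-71853268, + strand) at 35.5 and 35.7 in NI and 78.8 and 80.3 in shSCR (change of 44 PSI, log2 inclusion ratio 2.82, SE 0.35, adjusted p = 0.00103). Taz, the tafazzin that remodels cardiolipin, included an exon of 36 nt at 36.8 and 20 in NI and 68.9 and 60.4 in shSCR (change of 36.3 PSI, log2 inclusion ratio 2.16, SE 0.44, adjusted p = 0.00461), though without NI 2 the adjusted p was 0.114. Slc25a3, the phosphate carrier, had an intron at 7.63 and 7.35 in NI and 26.4 and 16 in shSCR that holds 2 annotated exons (change of 13.7 PSI, log2 inclusion ratio 1.71, SE 0.23, adjusted p = 0.000352, and 0.0523 when PSI itself was tested). Each of these was higher at day 12. In 35 genes of membrane traffic, 18 of 503 tested events (3.58%) in 8 genes passed both criteria, 14 higher and 4 lower at day 12. Dnm2, the dynamin of endocytosis, switched towards an exon of 139 nt at 18.1 and 17 in NI and 42.2 and 56.2 in shSCR, from its partner exon at 81.1 and 84.5 in NI and 60.5 and 44.3 in shSCR, and without NI 1, NI 2 or shSCR 2 the adjusted p was between 0.0646 and 0.136. Sec31a, of the COPII coat, had an exon of 291 nt at 17.4 and 17.2 in NI and 45.4 and 62.2 in shSCR, and without NI 1, NI 2 or shSCR 2 the adjusted p was between 0.0844 and 0.153. Bin1, which bends membranes, included an exon of 129 nt at 12 and 9.92 in NI and 34.2 and 35.5 in shSCR (change of 23.9 PSI, log2 inclusion ratio 2.11, SE 0.20, adjusted p = 4.7e-06). Golga2, a Golgi matrix protein, had an exon at 44.2 and 47.5 in NI and 75.8 and 61.8 in shSCR, and without NI 1, NI 2 or shSCR 1 the adjusted p was between 0.171 and 0.228.

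In 28 genes linked to pluripotency, 18 of 459 tested events (3.92%) in 8 genes passed both criteria, 11 higher and 7 lower at day 12. Atrx, a remodeller of heterochromatin, had a non-coding exon of 185 nt at 37.7 and 27.7 in NI and 59.7 and 59.3 in shSCR (change of 26.8 PSI, log2 inclusion ratio 1.58, SE 0.31, adjusted p = 0.0034), and without NI 2 the adjusted p was 0.114. Kdm4b, whose expression rose, had an intron of 114 nt at 23.4 and 15.8 in NI and 5.1 and 4.61 in shSCR (change of -14.8 PSI, log2 inclusion ratio -2.27, SE 0.35, adjusted p = 0.000607). Thus the exon of Atrx was higher at day 12, and the intron of Kdm4b and the exon of Spag9 were lower.

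Features that did not enter the choice of exons are given as a description. A length that is a multiple of 3, which keeps the reading frame whether the exon is included or not, was found in 341 of 694 exons that were higher (49.1%) and 191 of 370 that were lower (51.6%), against 39.5% of the 23589 tested. Wholly coding exons were less common, at 54.6% and 58.6% against 69.8%. The median length was 108 nt, 89 nt and 111 nt. Of the 1742 genes with an event that met both criteria, 1531 are listed in the expression table. Expression rose in 423 of these, fell in 291 and did not pass the test in 817, so that 46.6% were called, against 44.3% of the 8588 listed genes with a tested event. Genes with a changed event were thus called in expression about as often as the background.

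A second control of the series, cells at day 12 with the empty vector (Empty, 2 libraries) against day 0 MEFs (2 libraries) of the overexpression dataset, has libraries of its own, and its PSI changes were set beside those of shSCR. The titles and the infection field of those NI libraries give day 0 and no infection, but their time field gives day 12 of doxycycline, and the titles were followed. By median reads per exon event, Nanog had 11.5 and 12 in them and 2907 and 2642 in Empty. Of the cassette exons called in shSCR and covered in both datasets, 622 of 679 that were higher and 337 of 364 that were lower moved in the same direction with Empty. For introns these were 608 of 686 and 216 of 236. The changes were smaller with Empty. The median change of the exons that rose was 16.8 PSI with shSCR, which chose them, and 8.72 with Empty, and that of the introns that rose was 15.1 and 5.53. The overexpression vectors were retroviral and that of shSCR lentiviral, so that vector type and dataset cannot be told apart. A difference between the 2 datasets was tested as an interaction over 96290 events, of which 46 (0.0478%) were called at an adjusted p under 0.05 and 10146 had an unadjusted p under 0.05. Of the 46, 22 were introns, 18 of them with the more positive change in shSCR, and 21 were cassette exons. Shared switches included Nasp, with a PSI of 16.8 and 17.3 in the day 0 libraries of the overexpression dataset and 79.7 and 77.3 in Empty, and Dnm1l, with 14.7 and 10.4 in the day 0 libraries of the overexpression dataset and 60.3 and 45.7 in Empty. For Wsb1 the values were 22.7 and 50.6 in the day 0 libraries of the overexpression dataset and 49.8 and 44.8 in Empty, so that the day 0 libraries of that dataset lay apart, and its interaction did not pass the test (adjusted p = 0.261). Rbmx was called (adjusted p = 0.0281, but between 0.0563 and 0.182 without any one of the NI and shSCR libraries), with 56.3 and 56.1 in the day 0 libraries of the overexpression dataset and 17.7 and 18.4 in Empty.

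Intron retention as a whole also differed between libraries of 1 group. Over 29323 introns covered in all 8 libraries, the median PSI was 4.29 and 3.83 in NI, 5.45 and 4.95 in shSCR, 4.35 and 4.09 in the day 0 libraries of the overexpression dataset, and 5.38 and 3.77 in Empty. The shSCR libraries were above both NI libraries, whereas 1 Empty library lay above and 1 below its day 0 libraries. The part of this in the intron changes was not tested.

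**Figure D5:**
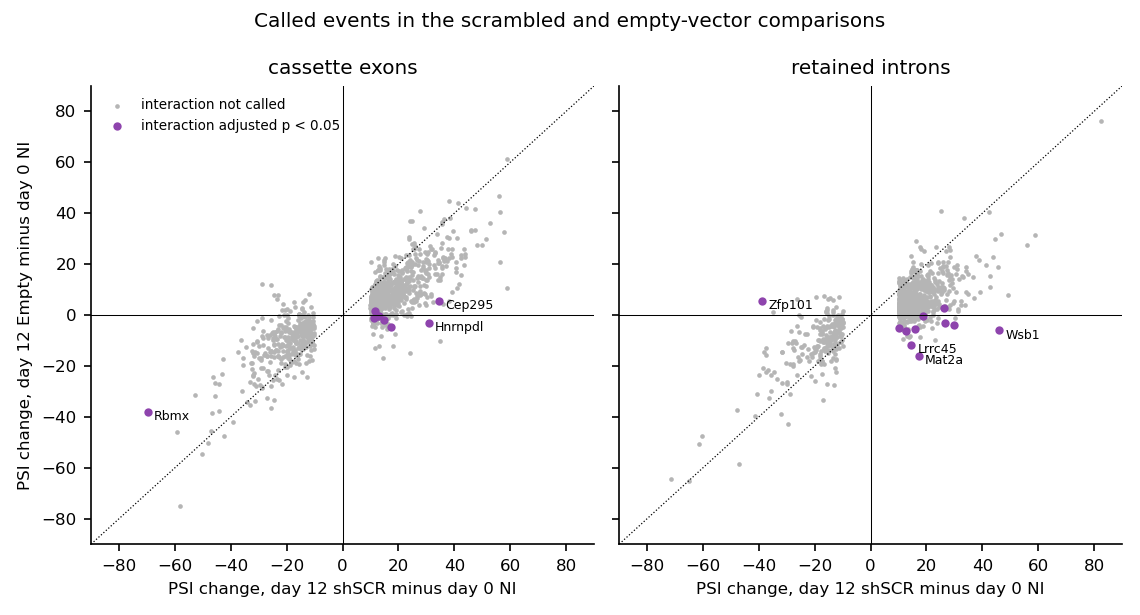
PSI change with Empty (day 12 minus day 0, vertical axis) against that with shSCR (horizontal axis) for the cassette exons (left) and introns (right) called in shSCR, each point being 1 event, with equal change as a dotted line and events with a called interaction in purple. Most points lie in the quadrants of equal direction, and the purple introns lie mostly to the right at or below 0 on the Empty axis.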

How the data were processed

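RNA-seq libraries of the series were stranded and paired-end. Per the labels and the submitters' processing notes, the authors mapped reads to mm10 with STAR 2.7.1a and computed CPM with edgeR 3.16.5. The deposited expression values are a signal, CPM relative to a library size scaled for each library. The authors quantified events with vast-tools and deposited PSI in percent, with a text of coverage and reads, from which inclusion and exclusion counts were taken.

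NI and shSCR (2 libraries each) were compared within a fit of all 12 knockdown libraries by limma 3.58.1 (R 4.3.3) with the trend option on log2(scaled CPM + 1), two-sided, adjusted by Benjamini-Hochberg over all 9435 genes at 0.05. Events were compared by the PSI rule and by robust limma on log2((inclusion + 1)/(exclusion + 1)), weighted by counting variance plus a floor. The interaction with Empty used 8 libraries. The tests were planned for CPM and used unchanged on the scaled values. Gene positions and exon sequences come from GENCODE M21 (GRCm38), in which 85.5% of covered exon events match an exon and 9427 gene identifiers matched. Python 3.11.15 and pandas 2.3.3 were used for counts. On simulated data of the expression comparison (9435 genes), 47 of 100 genes changed by 1 log2 unit and 88 of 100 changed by 2 were recovered.

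Named were the 10 largest called rises and falls, up to 6 members per list with the smallest adjusted p, the genes the study names, and the largest events per class and list. A few of the genes so chosen are not reported here. Other list members were named after their values were seen. Members and lists were chosen with earlier results of these data known. The labels tie no animal or day to a replicate number. Deviations of same-numbered NI and shSCR libraries correlated at -0.042 over genes, so no block was used, but those of the day 12 groups within the same fit correlated at 0.674 to 0.949. A reading depth of at least 10 reads per event leaves a wide counting error. Alternatives were another scaling, pseudocount, filter, weighting and threshold, a replicate block, and leaving out each library.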

Additional observations from a re-analysis of the deposited data

Results flagged for a closer look

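For 20 events that met both criteria in shSCR, the change from day 0 to day 12 differed between shSCR and the empty vector of the overexpression dataset by the interaction test (limma over 8 libraries, adjusted p over all 96290 events tested). The PSI values of day 0 differed between the datasets in many of them, and this difference enters the test. The number of such calls over all events was 46, and it was 2 without NI 1 and 3 without shSCR 1. Of the 20 given here, 19 lost the call without NI 1, 17 without NI 2, 18 without shSCR 1 and 7 without shSCR 2. Those of Rbmx, Zfp101, Zranb2, Fam193b, Dtx2 and Pnisr were lost without each of the 4, and that of the intron of Srsf5 held without each of them.

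The 20 are not all independent, since the introns of Srsf6 and Hnrnpdl hold the exons of these genes given further on, and the intron of Wsb1 holds its exon of 164 nt, whose own interaction was not called. Of the 20, 11 were introns, and PSI is given for the 4 libraries of the comparison and then for those of the overexpression dataset. An intron of Srsf5, an SR protein, was at 10.2 and 8.9 in NI and 24.6 and 19.9 in shSCR against 16.8 and 16.7 at day 0 and 10.1 and 11.1 in Empty (adjusted p = 0.00319). One of Srsf6, of the same family, was at 12.5 and 11.2 in NI and 32 and 29.2 in shSCR against 16.7 and 19.9 at day 0 and 19.07 and 17 in Empty (adjusted p = 0.0213). The intron of Tial1, a relative of Tia1, was at 8.15 and 8.47 in NI and 34.9 and 34.1 in shSCR against 12.2 and 14.4 at day 0 and 17 and 15.3 in Empty (adjusted p = 0.00361). That of Wsb1 was at 21.2 and 23.6 in NI and 68.4 and 68.5 in shSCR against 34.4 and 51.3 at day 0 and 39.7 and 34 in Empty (adjusted p = 0.0183). In each of these the change was more positive in shSCR than with Empty. An intron of Hnrnpdl, a nuclear RNA-binding protein, was at 25.6 and 23.6 in NI and 59.2 and 49.5 in shSCR against 37.6 and 38.9 at day 0 and 38.9 and 29.5 in Empty (adjusted p = 0.0281). The one in Mat2a, which makes S-adenosylmethionine, was at 25.5 and 25.4 in NI and 49.9 and 35.4 in shSCR against 37.4 and 32.9 at day 0 and 19.9 and 18.2 in Empty (adjusted p = 0.0281). The one of Zranb2, a zinc finger splicing factor, was at 9.13 and 9.56 in NI and 20.4 and 18.9 in shSCR against 19.5 and 20.5 at day 0 and 16.6 and 13 in Empty (adjusted p = 0.0282). The intron of Pnisr, an arginine- and serine-rich nuclear protein, was at 26.8 and 27.6 in NI and 45 and 41.4 in shSCR against 37.6 and 33.5 at day 0 and 29.9 and 30.4 in Empty (adjusted p = 0.0489). All of these also rose in shSCR. That of Nfatc4, a calcineurin-regulated transcription factor, was at 41 and 43 in NI and 69.6 and 67.7 in shSCR against 47.4 and 50 at day 0 and 48.3 and 42.6 in Empty (adjusted p = 0.0213). The retained intron of Lrrc45 was at 9.92 and 9.43 in NI and 24.1 and 24.5 in shSCR against 25.4 and 20.6 at day 0 and 10.2 and 12.2 in Empty (adjusted p = 0.0253). The intron of Zfp101, a zinc finger gene, was at 90.4 and 84.3 in NI and 51.2 and 46 in shSCR against 68.8 and 70 at day 0 and 72.3 and 77.8 in Empty (adjusted p = 0.0281). In Zfp101 alone of the introns, retention fell in shSCR and was higher with Empty.

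The other 9 were cassette exons. An exon of Srsf6 was at 4.1 and 4.13 in NI and 17.2 and 14.3 in shSCR against 9.45 and 10 at day 0 and 11.8 and 10.8 in Empty (adjusted p = 0.0247). One in Hnrnpdl was at 16.1 and 16.2 in NI and 53.2 and 40.9 in shSCR against 23.4 and 32.5 at day 0 and 23 and 26.6 in Empty (adjusted p = 0.0332). An exon of Bclaf1, a splicing-associated factor, was at 2.86 and 2.74 in NI and 18.2 and 12.2 in shSCR against 4.08 and 7.18 at day 0 and 5.12 and 5.05 in Empty (adjusted p = 0.0359). These 3 exons were more included in both shSCR libraries than in both NI libraries. The segment of Rbmx was at 77.2 and 82 in NI and 7.82 and 11.7 in shSCR against 56.3 and 56.1 at day 0 and 17.7 and 18.4 in Empty (adjusted p = 0.0281). An exon of Mdm2, the ubiquitin ligase of p53, was at 70 and 72 in NI and 90.5 and 86.2 in shSCR against 74.3 and 78.6 at day 0 and 69.8 and 74 in Empty (adjusted p = 0.0281). One of Cep295, a centriole protein, was at 59.1 and 61.9 in NI and 95 and 95.2 in shSCR against 78.4 and 78.3 at day 0 and 85.8 and 81.9 in Empty (adjusted p = 0.0183). Rbmx was lower at day 12 in both datasets, with the larger change in shSCR. The exon of Gas5, a host gene of small nucleolar RNAs, was at 86 and 87.5 in NI and 98.6 and 97.3 in shSCR against 96.1 and 97.4 at day 0 and 94.4 and 96.6 in Empty (adjusted p = 0.0281). That of Fam193b was at 75.6 and 74.9 in NI and 89.7 and 90.1 in shSCR against 80.9 and 82.5 at day 0 and 79.6 and 79.6 in Empty (adjusted p = 0.0346). The exon of Dtx2, a ubiquitin ligase of the Deltex family, was at 84.9 and 86.1 in NI and 98.6 and 98.5 in shSCR against 90.6 and 93.3 at day 0 and 91.3 and 91.7 in Empty (adjusted p = 0.0496).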

How the results depend on the processing

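No gene or event called in the main comparison and named in the text reversed under the alternatives run for it. Of genes that did not pass the test, 9 changed sign without 1 of the libraries, with log2 fold changes of -0.000101 to 0.62 (Cdkn1a), -0.21 to 0.57 (Col3a1), -0.089 to 0.31 (Dab2), -0.0201 to 0.30 (Gapdh), -0.063 to 1.24 (Hif1a), -0.40 to 0.47 (Mcm2), -0.032 to 0.41 (Mdm2), -1.19 to 0.91 (Prrx1) and -0.55 to 0.0397 (Zeb1). The number of called genes was 1903 with an added minimum of 1 log2 unit (1134 higher, 769 lower), and it ranged from 2613 to 3387 when a library was left out (1370 to 1759 higher, 1243 to 1628 lower), the lone library of an arm being assumed to vary like the other groups. By the PSI rule, 2439 events (1464 higher, 975 lower) remained past 15 PSI, 1254 (742 and 512) past 20 PSI and 2753 (1762 and 991) with the read test added. Leaving out a library gave 6029 to 6637 (3619 to 4008 higher, 2410 to 2703 lower), since with 1 library in a group the separation is easier to meet. The read test called 4821 events (3323 and 1498) on PSI in percent, 4490 (3145 and 1345) without weights, and 3343 to 6174 (2341 to 4347 and 1002 to 1827) without a library. The interaction called 104 events with 0.5 read added, 85 with all 18 libraries, and 2 to 52 without a library. The causes of these shifts were not tested.

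With the replicate number as a block, 5608 genes (2817 higher, 2791 lower) and 11981 events by reads (8401 and 3580) were called, and the interaction called 313 with the block within each dataset. The labels give no shared animal or day behind a number. Deviations of same-numbered NI and shSCR libraries correlated at -0.042 over genes and 0.021 over PSI. Those of day 12 groups correlated at 0.674 to 0.949 over genes and 0.101 to 0.256 over PSI, which the fits without the block do not model. The fit of only the 4 libraries, which holds no other day 12 group, called 3767 genes.

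Without a library, 106 of 664 values of named genes, 49 of 220 of named events and 61 of 80 of the named interactions lost their call, and under the other alternatives 20 of 1162, 17 of 377 and 4 of 60 did. The totals of genes and events include named ones that were not called in the main comparison and had no call to lose. A count test on recovered reads, planned as an alternative, was not run. Depth limits the events with few reads, such as those of Trim46 and Pcnt.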

Other observations

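Genes outside the expression table were searched by their reads over exon events, among 7698 such genes with at least 3 exon events. The genes named here were chosen after their values were seen, and no test was run. In 21 of them the median was at most 5 reads in both NI libraries and at least 500 in both shSCR libraries, and 15 of these 21 also reached 500 in both Empty libraries. Some are members of the lists, such as Cdh1, Epcam, Esrrb and Dnmt3l. Others are known from the placenta. Prl2a1, of the prolactin family of the placenta, had 2 and 0 reads in NI and 3327 and 611 in shSCR, but 320 and 156 in Empty. Ctsj, a placental cathepsin, had 0 and 0 in NI, 797 and 632 in shSCR, and 191 and 59 in Empty. Plet1, a surface protein of placenta and epithelia, had 4 and 0.5 in NI and 871 and 685.5 in shSCR. Laptm5, a lysosomal protein of haematopoietic cells, had 0 and 3 in NI and 1073 and 1208 in shSCR, and Lbp, the lipopolysaccharide binding protein, had 2 and 5 in NI and 2402 and 660 in shSCR. Ndufa4l2, a mitochondrial gene known from the hypoxia response, had 1 and 0 in NI and 1728 and 1395 in shSCR. Aqp3, a water and glycerol channel of epithelia, had 4 and 3.5 in NI and 731 and 548.5 in shSCR.

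In the other direction, 0 genes had at least 500 reads in both NI libraries and at most 5 in both shSCR libraries. By a looser rule, 9 genes had at least 100 reads in both NI libraries and far fewer, by a factor of 10 or more, in both shSCR libraries. Cnn1, the calponin of smooth muscle, had 3237 and 3165 in NI and 130 and 101 in shSCR. Myh11, smooth muscle myosin, had 201 and 202 in NI and 3 and 7 in shSCR. Tnmd, tenomodulin of tendon, had 1043 and 1002.5 in NI and 17.5 and 42 in shSCR, and Tfpi2, a secreted protease inhibitor, had 360 and 113 in NI and 1 and 1 in shSCR.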
